A study of Mus musculus with 18 samples.

Results

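The small leucine-rich proteoglycan genes measured here are Bgn (biglycan), Dcn (decorin), Aspn (asporin), Lum (lumican), Prelp, Fmod (fibromodulin), Omd (osteomodulin), Ogn (osteoglycin, also called mimecan) and Podn (podocan). They were chosen by gene name, with earlier results of these data known, and all 9 were found among the 34714 genes of the deposited table. RNA was sequenced from mouse hearts in 4 groups, all on the C57 background and named in the labels by genotype and treatment. Knockout TAC (5 libraries) and knockout sham (4 libraries) carried a knockout of Kcp, and wild-type TAC (5 libraries) and wild-type sham (4 libraries) did not. The product of Kcp, kielin/chordin-like protein, is secreted and modulates BMP and TGF-beta signalling. TAC is transverse aortic constriction, an operation that narrows the aorta and puts a pressure load on the left ventricle, and sham is the operation without the constriction. The labels give the tissue as heart without naming a chamber, a time after surgery, an age or a sex. They do not say that each library came from its own mouse, so p-values measure the spread between these samples. Knockout sham replicate 2 has a library name that joins those of replicates 3 and 4. It was left out, and 17 libraries were compared. The library name of knockout TAC replicate 4 joins a pair of names that no other library carries, and that library was kept.

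Small leucine-rich proteoglycans are secreted proteins whose core folds into a curved stack of leucine-rich repeats. Most bind collagen and shape how its fibrils assemble and how thick they grow, and several also bind growth factors of the TGF-beta family or cell surface receptors. In the heart they are made mainly by fibroblasts and other interstitial cells, and they are part of the matrix that is rebuilt under pressure load. Class I (biglycan, decorin and asporin) carries chondroitin or dermatan sulfate chains, except asporin, which has a stretch of aspartates. Class II consists here of lumican, fibromodulin, PRELP and osteomodulin, and some of its members carry keratan sulfate chains. Osteoglycin belongs to class III and podocan to class V.

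Genes of the family lie in clusters on the mouse genome (GRCm38, GENCODE coordinates). Prelp lies at chr1:133910304-133921414 on the minus strand, and Fmod at chr1:134037254-134048277 on the plus strand, 115.839 kb away. Dcn lies at chr10:97479609-97518143 and Lum at chr10:97565128-97572703, both on the plus strand with 46.984 kb between them. Aspn (chr13:49544443-49567565), Omd (chr13:49582462-49592822) and Ogn (chr13:49608046-49624501) follow each other on the plus strand with gaps of 14.896 kb and 15.223 kb. All 3 lie within Cenpp (chr13:49464023-49652785), a gene of the minus strand. The sources used here do not say whether reads were counted by strand, so reads of these genes and of Cenpp cannot be told apart. Cenpp had 0.735 to 2.42 FPKM over the 17 libraries, close to the level of Omd and well below those of Aspn and Ogn. Podn lies at chr4:108014791-108096445 on the minus strand and Bgn at chrX:73483602-73495933 on the plus strand.

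The 250 bases before the start of transcription are shown for Bgn, Prelp and Aspn, the genes that passed the test of TAC against sham in both genotypes, and for Ogn, which shares the chromosome 13 cluster with Aspn and passed in neither. They are RefSeq windows on GRCm38.p6, written on the strand of the gene, and RefSeq starts can differ by some bases from those of GENCODE. Capitals mark matches, searched on both strands, to 5 short motifs. The TATA box was searched as the letters TATAAA. The GC box, which SP1 binds, was searched as the letters GGGCGG. For the SMAD element the letters were CAGAC, for the TEAD element they were GGAATG, and for the AP-1 element they were TGANTCA. In the order of the lines, the windows are chrX:73483351-73483600, chr1:133921402-133921651, chr13:49544193-49544442 and chr13:49607765-49608014.
Bgn: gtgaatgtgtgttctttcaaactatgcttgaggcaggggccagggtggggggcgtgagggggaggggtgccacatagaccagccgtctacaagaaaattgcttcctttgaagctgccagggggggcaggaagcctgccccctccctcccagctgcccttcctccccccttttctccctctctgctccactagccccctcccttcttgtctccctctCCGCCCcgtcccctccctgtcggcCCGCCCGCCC
Prelp: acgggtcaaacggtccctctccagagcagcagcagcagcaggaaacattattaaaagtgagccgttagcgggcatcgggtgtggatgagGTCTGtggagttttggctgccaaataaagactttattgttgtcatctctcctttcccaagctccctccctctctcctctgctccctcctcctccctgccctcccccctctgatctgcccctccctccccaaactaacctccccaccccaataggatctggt
Aspn: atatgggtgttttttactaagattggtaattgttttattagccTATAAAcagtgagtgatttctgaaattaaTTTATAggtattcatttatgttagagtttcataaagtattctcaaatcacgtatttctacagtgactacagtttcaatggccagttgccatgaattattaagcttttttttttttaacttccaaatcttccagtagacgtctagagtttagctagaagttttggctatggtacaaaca
Ogn: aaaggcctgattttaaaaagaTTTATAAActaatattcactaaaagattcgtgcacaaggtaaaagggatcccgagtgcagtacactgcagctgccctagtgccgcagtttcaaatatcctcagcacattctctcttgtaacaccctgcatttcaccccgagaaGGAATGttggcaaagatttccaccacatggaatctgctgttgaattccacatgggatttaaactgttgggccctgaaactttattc

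The 4 windows differed in composition. The window of Bgn had 64.4% G and C and held 3 GC boxes, the first of them at position -34 relative to the start, and the last 2 of them overlap. The Prelp window had 55.6% G and C and 1 SMAD element. The Aspn window had 30% G and C and 2 TATA boxes, which end at positions -202 and -173. That of Ogn had 42% G and C, 2 overlapping TATA boxes, which end at positions -224 and -222, and 1 TEAD element. The median over all windows was 52.4% G and C. Among 32851 RefSeq windows of the same length, GGGCGG was present in 32.7%, CAGAC in 42.2%, TATAAA in 12.4%, GGAATG in 12.6% and TGANTCA in 6.75%, so none of these letters is rare. Fmod, the chromosome 1 neighbour of Prelp, held 2 SMAD elements, Podn held 2 GC boxes in the first of its 2 windows, and Omd held no match. AP-1 elements were found in none of the windows searched, and Dcn and Lum were not searched.

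Values were inferred from their range to be FPKM, which scale for transcript length. The comparison of levels between genes rests on that inference. In wild-type sham hearts Dcn was the most abundant of the family at 275 ± 32.9 FPKM (SD, n = 4), followed by Bgn at 102 ± 7.58 FPKM and Ogn at 50.9 ± 2.58 FPKM. Lum had 29.4 ± 5.14 FPKM, Prelp 17.5 ± 1.10, Aspn 12.2 ± 1.08 and Podn 10.3 ± 2.17. Omd (0.756 ± 0.440 FPKM) and Fmod (0.283 ± 0.168 FPKM) were the lowest. Wild-type sham libraries of neighbours in this order did not overlap, except those of Aspn with Podn and of Omd with Fmod. All 9 genes passed the filter of 1 FPKM in at least 3 libraries. Fmod reached 1 FPKM in 9 libraries, none of them sham, so it passed only through the TAC groups, and Omd reached it in 7 libraries, 2 of them sham.

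The libraries were first checked against their labels and for technical splits. Kcp had 0.494 to 0.952 FPKM in knockout TAC against 0.985 to 1.48 in wild-type TAC, and 0.655 to 0.673 in knockout sham against 0.794 to 1.43 in wild-type sham. It was lower in the libraries labelled knockout but present in them, and neither difference passed (limma with Benjamini-Hochberg adjusted p = 0.0843 after TAC and 0.301 in sham). A second split did not follow the labels. Ndufb4c had 4.47 to 8.08 FPKM in all knockout libraries of the model and in wild-type TAC replicate 5, against 35.9 to 49.4 FPKM in the other wild-type libraries. The label of wild-type TAC replicate 5 is in doubt for this reason, although its Kcp level lay with wild-type TAC, and the tests of the family that rest on it are given with and without it. On the first principal component wild-type TAC replicate 5 and knockout TAC replicate 2 were the TAC libraries of their genotypes that lay nearest to sham. Wild-type TAC replicate 5 had the lowest value of its group for 9 of the 9 family members, and knockout TAC replicate 2 for 6 of the 9. Cardiomyocyte markers made up 46202 to 61474 FPKM per library and lymphocyte markers 1.07 to 4.83 FPKM.

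**Figure D1:**
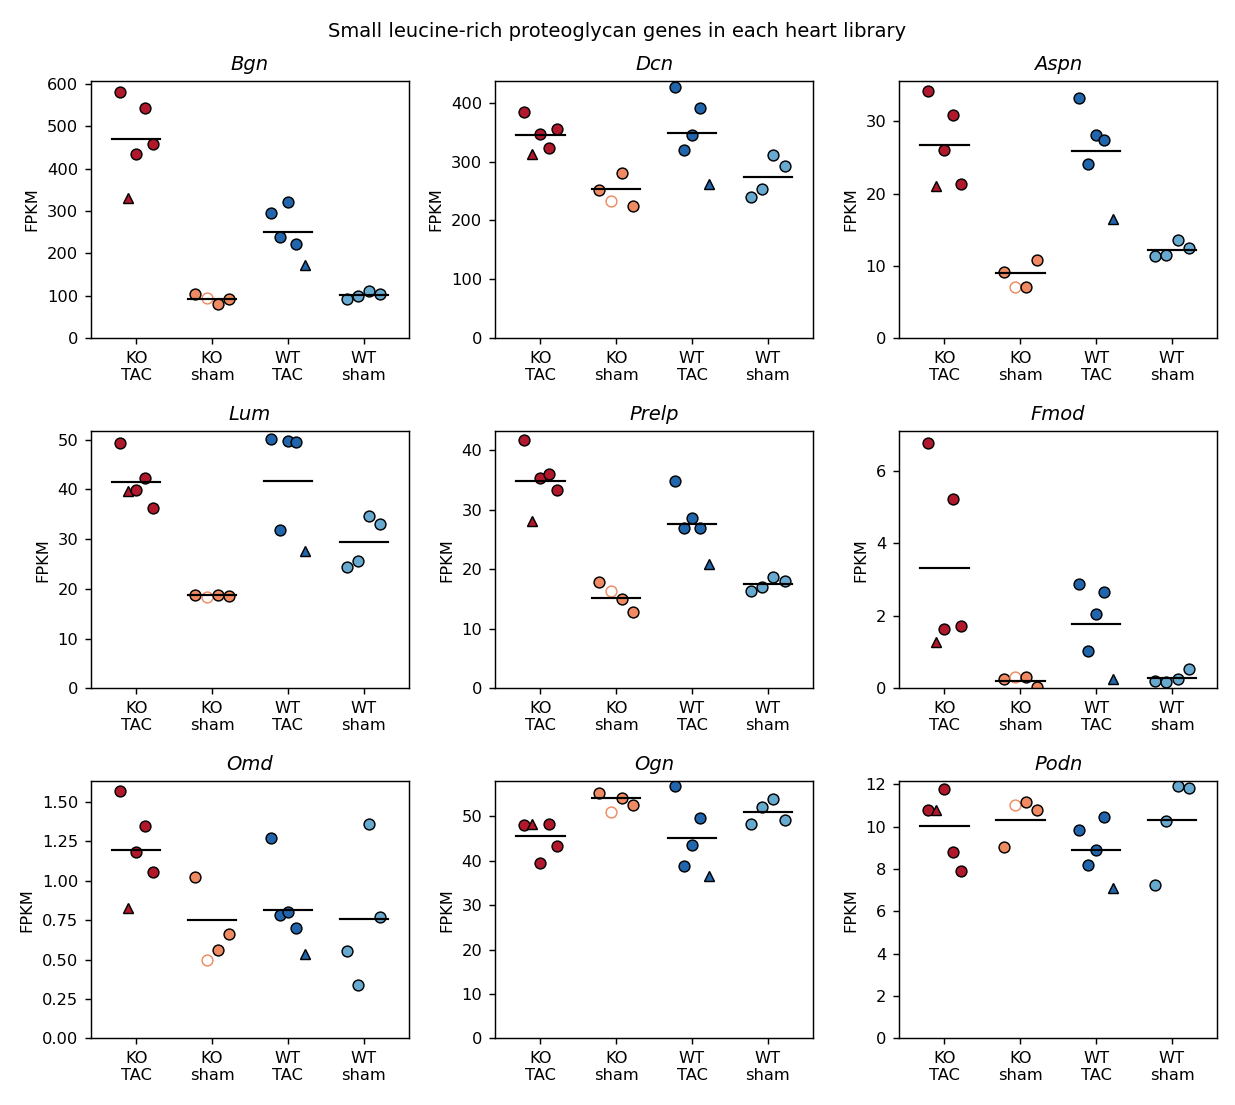
FPKM (y axis, from 0) of each of the 9 genes in each library, by group (x axis), with black lines at the means of the libraries in the model. Triangles are knockout TAC replicate 2 and wild-type TAC replicate 5, and the hollow circle is knockout sham replicate 2, which was left out of the means. Bgn had 331 to 582 FPKM in knockout TAC, 80.2 to 104 in knockout sham, 173 to 322 in wild-type TAC and 93.5 to 111 in wild-type sham.

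The response of the family to pressure load was examined first in the hearts labelled knockout, as TAC against sham. Of the 9 genes, 6 rose and 0 fell: Bgn, Fmod, Aspn, Prelp, Lum and Dcn. Fmod is counted among the 6, but it passed the filter only through TAC libraries and is no independent evidence for the family. Among all 11937 genes tested, 21.1% rose and 17.7% fell (38.8% in all). The median log2 change was 1.10 over the family and 0.01 over all genes. In wild-type hearts 3 of the 9 rose and 0 fell, namely Bgn, Aspn and Prelp, against a background of 10.7% risen and 11.2% fallen (21.9% in all). Here the medians were 0.47 for the family and -0.01 for all genes. The family medians include Fmod, which lies above each of them. All log2 changes are differences of log2(FPKM + 1) with their SE, which understates the change of low genes. These 3 genes are 50% of the list called in knockout hearts and 100% of the list called in wild-type hearts. Without wild-type TAC replicate 5, whose label is in doubt, the wild-type count was 6, beside 1273 of all 11925 genes risen. Those 6, Fmod among them, were the genes called in knockout hearts. Of 16 fibroblast markers, whose values follow further on, 9 rose and 3 fell in knockout hearts and 7 rose and 2 fell in wild-type hearts. In tissue RNA, more cells of a type and more RNA per cell cannot be told apart.

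Bgn encodes biglycan, which binds collagen and, once released from the matrix, the receptors TLR2 and TLR4. It had 582, 331, 435, 544 and 458 FPKM in the knockout TAC libraries and 104, 80.2 and 92.6 FPKM in knockout sham. Wild-type TAC hearts had 295, 239, 322, 223 and 173 FPKM, and wild-type sham hearts had 93.5, 98.5, 111 and 105 FPKM. Every TAC library lay above every sham library of either genotype, and every knockout TAC library lay above every wild-type TAC library. Mean FPKM was 5.09 times that of sham in knockout hearts and 2.46 times in wild-type hearts. The log2 change was 2.32 ± 0.19 in knockout hearts and 1.26 ± 0.17 in wild-type hearts (limma with Benjamini-Hochberg adjusted p = 3.13e-07 and 0.000133). Without wild-type TAC replicate 5 the wild-type changes of Bgn, Aspn and Prelp were 1.38, 1.14 and 0.70, and each still passed.

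Aspn encodes asporin, a collagen-binding relative of decorin that can bind TGF-beta. Its level was 34.2, 21.1, 26.0, 30.9 and 21.3 FPKM in knockout TAC and 9.17, 7.09 and 10.8 FPKM in knockout sham. Wild-type TAC libraries had 33.2, 24.1, 28.1, 27.4 and 16.5 FPKM, against 11.3, 11.5, 13.6 and 12.5 FPKM in wild-type sham. TAC and sham libraries were separate in both genotypes, and wild-type TAC replicate 5, at 16.5 FPKM, came nearest to sham. Aspn rose by 1.46 ± 0.19 in knockout hearts and by 0.99 ± 0.18 in wild-type hearts on the log2 scale (limma with Benjamini-Hochberg adjusted p = 2.33e-05 and 0.00101).

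Prelp encodes a basement membrane and connective tissue protein that binds heparan sulfate and collagen. It had 41.7, 28.0, 35.2, 35.9 and 33.3 FPKM in knockout TAC, against 17.8, 15.04 and 12.7 FPKM in knockout sham. In wild-type TAC it had 34.8, 26.8, 28.6, 26.9 and 20.9 FPKM, against 16.2, 17.1, 18.7 and 18.1 FPKM in wild-type sham. The groups did not overlap in either genotype. The log2 change was 1.15 ± 0.13 in knockout hearts and 0.61 ± 0.12 in wild-type hearts (limma with Benjamini-Hochberg adjusted p = 5.42e-06 and 0.00215).

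Lum encodes lumican, the keratan sulfate proteoglycan best known from the cornea, where it spaces collagen fibrils. It had 49.2, 39.7, 39.9, 42.2 and 36.2 FPKM in knockout TAC and 18.8, 18.9 and 18.5 FPKM in knockout sham. Wild-type TAC libraries had 50.1, 31.8, 49.8, 49.4 and 27.6 FPKM, and wild-type sham libraries had 24.4, 25.5, 34.6 and 33.0 FPKM. The knockout groups were far apart, whereas wild-type TAC replicates 2 and 5 lay within the range of wild-type sham. Lum rose by 1.10 ± 0.18 in knockout hearts (limma with Benjamini-Hochberg adjusted p = 0.000161). In wild-type hearts its log2 change of 0.47 ± 0.17 missed the threshold (limma with Benjamini-Hochberg adjusted p = 0.0537). Without wild-type TAC replicate 5 that change was 0.60 and passed (limma with Benjamini-Hochberg adjusted p = 0.00603).

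Fmod encodes fibromodulin, which binds collagen at the same region as lumican and influences its crosslinking. Knockout TAC libraries had 6.76, 1.27, 1.65, 5.22 and 1.70 FPKM, against 0.250, 0.308 and 0.0269 FPKM in knockout sham. Wild-type TAC libraries had 2.89, 1.02, 2.04, 2.66 and 0.243 FPKM, against 0.187, 0.163, 0.252 and 0.528 FPKM in wild-type sham. All knockout TAC libraries were above all knockout sham libraries, with replicates 1 and 4 well above the others, while wild-type TAC replicate 5 lay within the sham range. The log2 change was 1.67 ± 0.41 in knockout hearts, which passed, and 1.0 ± 0.38 in wild-type hearts, which missed the threshold (limma with Benjamini-Hochberg adjusted p = 0.00439 and 0.0683). With a pseudocount of 0.1 in place of 1 the changes were 3.39 and 2.03, and that in wild-type hearts passed (limma with Benjamini-Hochberg adjusted p = 0.0315). It passed in 7 of 25 alternative settings, with adjusted p of 0.00730 to 0.138 by limma, and without wild-type TAC replicate 5 it was 1.26. Since Fmod passed the filter only through its TAC libraries, its call is no independent evidence for the family.

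Dcn encodes decorin, which coats collagen fibrils and binds TGF-beta. It had 384, 313, 347, 324 and 355 FPKM in knockout TAC and 252, 281 and 225 FPKM in knockout sham. Wild-type TAC libraries had 427, 320, 345, 391 and 263 FPKM, against 240, 254, 311 and 293 FPKM in wild-type sham. Every knockout TAC library was above every knockout sham library, and 4 of the 5 wild-type TAC libraries were above all of wild-type sham. Dcn rose by 0.45 ± 0.13 in knockout hearts (limma with Benjamini-Hochberg adjusted p = 0.00978), a change of 0.37 that did not pass without knockout sham replicate 4 (limma with Benjamini-Hochberg adjusted p = 0.0595). The wild-type change of 0.33 ± 0.12 missed the threshold (limma with Benjamini-Hochberg adjusted p = 0.0505), and without wild-type TAC replicate 5 it was 0.43 and passed (limma with Benjamini-Hochberg adjusted p = 0.00568).

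Ogn, Omd and Podn did not pass in either genotype with the 17 libraries. Ogn encodes osteoglycin, a class III member that also influences collagen fibrils. It had 48.1, 48.3, 39.5, 48.3 and 43.4 FPKM in knockout TAC, against 55.4, 54.1 and 52.5 FPKM in knockout sham. Its values in wild-type TAC were 56.9, 38.8, 43.6, 49.6 and 36.6 FPKM, against 48.4, 52.1, 53.9 and 49.2 FPKM in wild-type sham. The knockout groups did not overlap, with TAC below sham, but the log2 change of -0.25 ± 0.11 missed the threshold (limma with Benjamini-Hochberg adjusted p = 0.0794). It passed in 4 of 25 alternative settings, and the wild-type change was -0.19 ± 0.10. Without wild-type TAC replicate 1 the wild-type change was -0.27 and passed (limma with Benjamini-Hochberg adjusted p = 0.0288). Podn, which encodes a podocan known from podocytes and vascular smooth muscle, had 7.91 to 11.8 FPKM in knockout TAC, 9.03 to 11.2 in knockout sham, 7.09 to 10.5 in wild-type TAC and 7.25 to 11.9 in wild-type sham. Its groups overlapped in both genotypes (log2 change -0.05 ± 0.15 in knockout and -0.18 ± 0.14 in wild-type hearts). Omd, which encodes a protein first found in bone, had 0.826 to 1.57 FPKM in knockout TAC, 0.562 to 1.02 in knockout sham, 0.534 to 1.27 in wild-type TAC and 0.340 to 1.36 in wild-type sham. These ranges overlapped too, with log2 changes of 0.33 ± 0.16 in knockout and 0.07 ± 0.15 in wild-type hearts, and at this level Omd is close to the overlapping Cenpp. The knockout change passed with all 18 libraries (0.38, limma with Benjamini-Hochberg adjusted p = 0.0462) and with the replicate block (0.45, limma with Benjamini-Hochberg adjusted p = 0.0349).

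Knockout TAC was compared with wild-type TAC to ask whether the loaded hearts differed by genotype. Of the 9 genes, 1 was higher and 0 were lower in knockout TAC, against 6.53% higher and 4.78% lower (11.3% in all) among all genes tested. That gene was Bgn, with a log2 difference of 0.91 ± 0.16 (limma with Benjamini-Hochberg adjusted p = 0.00320), and mean FPKM 1.88 times that of wild-type TAC. It passed in 25 of 25 alternative settings, at 0.79 to 1.41 with adjusted p from 0.00024 to 0.0135 by limma. Inside the library set marked by low Ndufb4c, the knockout TAC libraries had 331 to 582 FPKM of Bgn and the only wild-type TAC library had 173 FPKM. With the set as a term the difference was 1.41 (limma with Benjamini-Hochberg adjusted p = 0.00982), a value that rests on that library. Without it the difference of Bgn was 0.79 and passed (limma with Benjamini-Hochberg adjusted p = 0.00569). All remaining wild-type TAC libraries had high Ndufb4c and all knockout TAC libraries low, so genotype and set cannot be told apart there. In every comparison of the TAC groups, also those of the gene lists further on, only wild-type TAC replicate 5 separates genotype from set. Prelp had 28.0 to 41.7 FPKM in knockout TAC and 20.9 to 34.8 in wild-type TAC. Its difference of 0.33 ± 0.12 missed the threshold (limma with Benjamini-Hochberg adjusted p = 0.0763). With the set as a term it was 0.70 and passed (limma with Benjamini-Hochberg adjusted p = 0.0477), a value that likewise rests on wild-type TAC replicate 5. Without that library it was 0.24 and missed the threshold (limma with Benjamini-Hochberg adjusted p = 0.182). The differences of the other 7 genes were 0.57 ± 0.35 for Fmod, 0.28 ± 0.14 for Omd and 0.15 ± 0.13 for Podn, 0.05 ± 0.17 for Aspn, 0.03 ± 0.16 for Lum, 0.03 ± 0.09 for Ogn and -0.0020 ± 0.11 for Dcn. Those of the last 4 were smaller than their SE. With the set as a term they were 0.64 for Aspn, 0.56 for Lum, 0.30 for Ogn and 0.39 for Dcn, and without wild-type TAC replicate 5 they were -0.09, -0.11, -0.04 and -0.10, none of which passed.

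**Figure D2:**
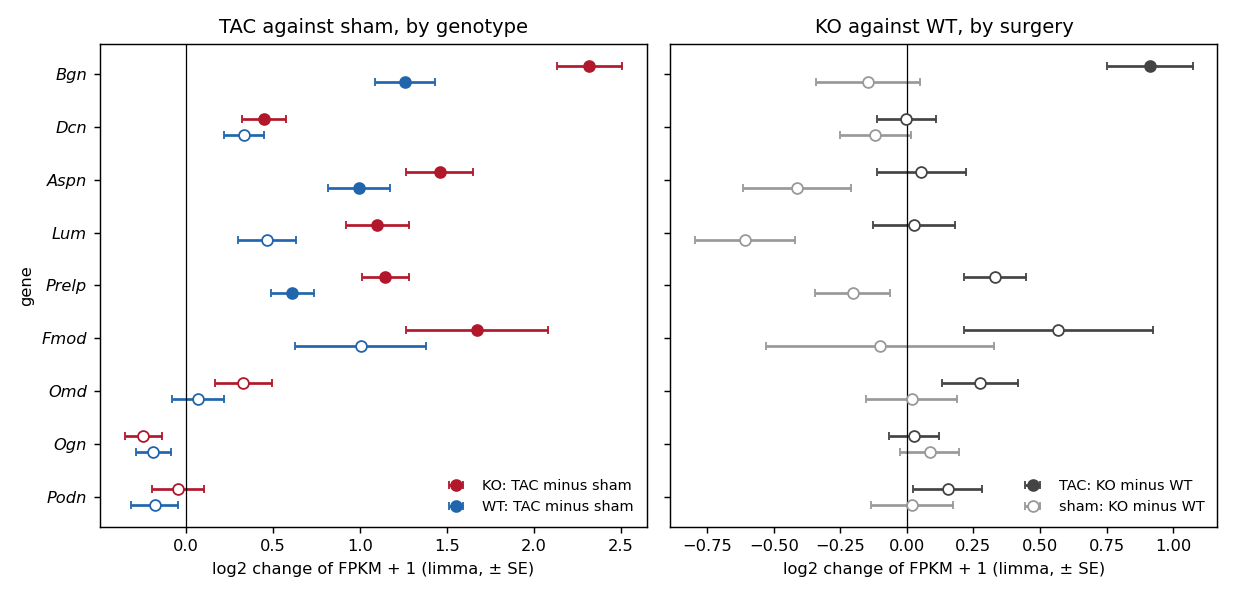
Log2 change of FPKM + 1 with its SE (x axis) for each gene (y axis), for TAC minus sham in each genotype on the left and for knockout minus wild type under each surgery on the right. Filled points passed at an adjusted p of 0.05 by limma: 6 in knockout hearts, 3 in wild-type hearts and 1, Bgn, between the TAC groups.

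Knockout sham was compared with wild-type sham to describe the unloaded heart. By limma with Benjamini-Hochberg adjustment 0 of the 9 genes passed, and 1 (Lum) had an unadjusted p under 0.05; among all genes 0.645% were higher and 0.62% lower (1.26% in all). Lum had 18.5 to 18.9 FPKM in knockout sham and 24.4 to 34.6 in wild-type sham, with no overlap and a log2 difference of -0.61 ± 0.19 (limma with Benjamini-Hochberg adjusted p = 0.138). For Aspn the 3 knockout sham libraries (7.09 to 10.8 FPKM) were likewise all below the 4 wild-type sham libraries (11.3 to 13.6 FPKM), at -0.41 ± 0.20 (limma with Benjamini-Hochberg adjusted p = 0.370). Differences of the other 7 genes lay between -0.20 and 0.08. All knockout sham libraries fall in the set with low Ndufb4c and all wild-type sham libraries in the other, so genotype and set cannot be told apart in sham.

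The difference between genotypes in the response to TAC was tested as an interaction. By limma with Benjamini-Hochberg adjustment 0 of the 9 genes passed, and 3 (Bgn, Prelp and Lum) had an unadjusted p under 0.05; among all genes 0.377% were higher and 0.553% lower (0.93% in all). The log2 response of Bgn was larger in knockout hearts by 1.06 ± 0.25 (limma with Benjamini-Hochberg adjusted p = 0.0568). It passed in 6 of 24 alternative settings, with values of 0.94 to 1.18 and adjusted p of 0.00505 to 0.111 by limma over all 24. Without knockout TAC replicate 2 it was 1.18 and passed (limma with Benjamini-Hochberg adjusted p = 0.0103), and it likewise passed without wild-type TAC replicate 1 or 3 (1.13 and 1.16, limma with Benjamini-Hochberg adjusted p = 0.0471 and 0.0372). Without wild-type TAC replicate 5 it was 0.94 and missed the threshold (limma with Benjamini-Hochberg adjusted p = 0.0741). Lum and Prelp had interactions of 0.63 ± 0.24 and 0.53 ± 0.18 (limma with Benjamini-Hochberg adjusted p = 0.175 and 0.131). A response past the threshold in knockout and not in wild-type hearts, as for Lum, Fmod and Dcn, is therefore not shown to differ between the genotypes.

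Biglycan and decorin are the closest relatives in the family, and their genes moved by unequal amounts. The ratio of Bgn to Dcn, in FPKM, was 1.52, 1.06, 1.25, 1.68 and 1.29 in knockout TAC and 0.411, 0.286 and 0.413 in knockout sham. It was 0.692, 0.747, 0.934, 0.569 and 0.658 in wild-type TAC and 0.389, 0.388, 0.357 and 0.358 in wild-type sham. Bgn exceeded Dcn in all 5 knockout TAC libraries and in none of the other 12. On the log2(FPKM + 1) scale Bgn minus Dcn was higher after TAC by 1.87 in knockout hearts (2-sided exact permutation p = 0.0179, n = 5 and 3) and by 0.92 in wild-type hearts (exact permutation p = 0.00794, n = 5 and 4). Between knockout TAC and wild-type TAC it differed by 0.91 (exact permutation p = 0.00794, n = 5 each). Each of these 3 p-values is the smallest that its group sizes allow. Without wild-type TAC replicate 5 the difference was 0.95 in wild-type hearts (exact permutation p = 0.0286, n = 4 each) and 0.89 between the TAC groups (exact permutation p = 0.00794, n = 5 and 4). Between knockout sham and wild-type sham the difference was -0.03 (exact permutation p = 0.943, n = 3 and 4).

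**Figure D3:**
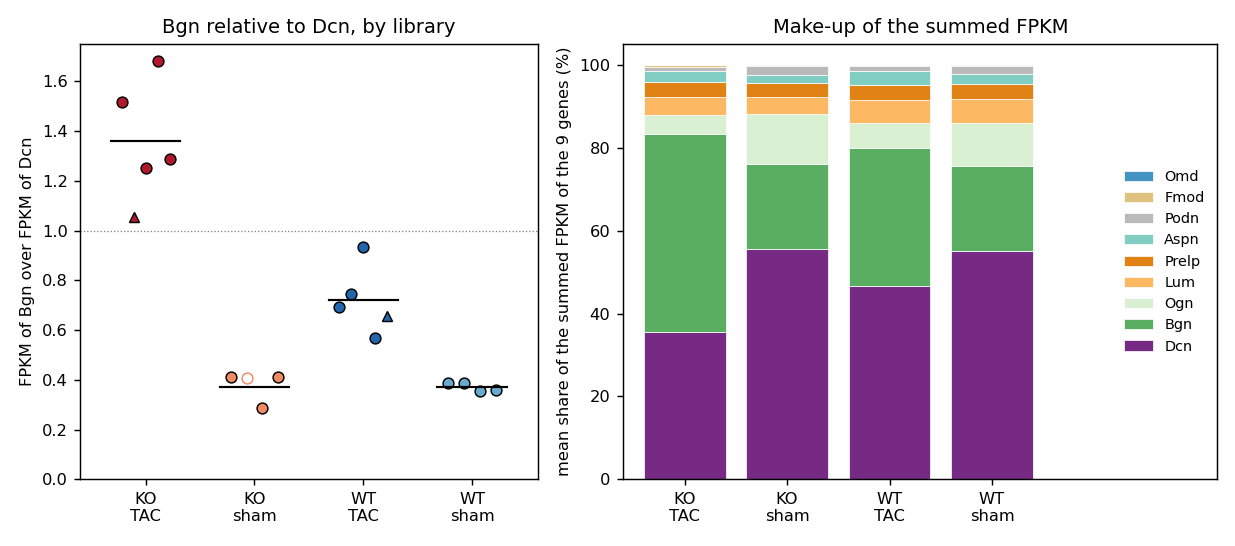
Left, FPKM of Bgn over FPKM of Dcn (y axis) in each library by group (x axis), with lines at the group means, triangles for knockout TAC replicate 2 and wild-type TAC replicate 5, the hollow circle for knockout sham replicate 2 and a dotted line at a ratio of 1. Right, the mean share of each gene in the summed FPKM of the 9 genes (y axis, %), where Bgn held 47.7% in knockout TAC, 20.4% in knockout sham, 33.2% in wild-type TAC and 20.5% in wild-type sham.

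The make-up of the family shifted with these changes. The summed FPKM of the 9 genes was 977 ± 134 in knockout TAC (n = 5), 453 ± 25.9 in knockout sham (n = 3), 751 ± 140 in wild-type TAC (n = 5) and 498 ± 51.6 in wild-type sham (n = 4). Bgn held 41.7% to 52.3% of this sum in knockout TAC, 17.1% to 22.2% in knockout sham, 28.5% to 38.9% in wild-type TAC and 19.9% to 21.1% in wild-type sham. Dcn held 35.6% ± 3.36 in knockout TAC and 55.7% ± 3.77 in knockout sham, against 46.6% ± 3.14 in wild-type TAC and 55.1% ± 0.974 in wild-type sham. The share of Ogn was 4.72% ± 0.786 in knockout TAC and 11.9% ± 0.436 in knockout sham, and 6.04% ± 0.588 in wild-type TAC and 10.3% ± 0.855 in wild-type sham. Shares of Prelp stayed between 3.01% and 3.89% in every library of the model. The shares add up to the whole, so they do not move independently. Mean shares of Dcn, Ogn, Omd and Podn were lower after TAC in both genotypes, while those of Aspn, Fmod and Prelp were higher. The share of Aspn went from 2.01% to 2.72% in knockout and from 2.46% to 3.41% in wild-type hearts. That of Lum was higher after TAC in knockout hearts and lower in wild-type hearts.

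Neighbours on a chromosome differed in how far their proportions moved. The FPKM ratio of Aspn to Ogn was 0.437 to 0.711 in knockout TAC and 0.131 to 0.206 in knockout sham, and 0.449 to 0.645 in wild-type TAC and 0.220 to 0.253 in wild-type sham. TAC and sham were thus separate in both genotypes for these members of the chromosome 13 cluster. The ratio of Dcn to Lum on chromosome 10 was 7.67 to 9.81 in knockout TAC and 12.2 to 14.9 in knockout sham, and 6.92 to 10.1 in wild-type TAC and 8.88 to 9.97 in wild-type sham. It separated TAC from sham in knockout hearts and overlapped in wild-type hearts. The ratio of Omd to Ogn was 0.0171 to 0.0326 in knockout TAC and 0.0104 to 0.0184 in knockout sham, and 0.0141 to 0.0223 in wild-type TAC and 0.00653 to 0.0253 in wild-type sham. These ranges of the FPKM ratio overlapped in both genotypes, but on the log2(FPKM + 1) scale TAC and sham were separate in knockout hearts. The ratio of Aspn to Omd was 20.3 to 25.5 in knockout TAC and 8.98 to 16.3 in knockout sham, which were separate. It was 26.2 to 39.2 in wild-type TAC and 10.01 to 33.7 in wild-type sham, which overlapped. On the log2(FPKM + 1) scale Aspn minus Omd was separate in wild-type hearts too. At the low level of Omd these readings depend on the scale, and Omd lies within Cenpp. Fmod, which passed the filter only through TAC libraries, is not set against Prelp here. These pairs were compared after the values were seen and are given without a test.

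For each gene the most alike genes were sought among about 10750 named genes with a mean of at least 1 FPKM, pseudogenes and unnamed gene models being left out, by the root mean square difference between log2(FPKM + 1) profiles, each centred on its mean, over the 17 libraries. The nearest to Bgn were Fstl1, a secreted follistatin-like glycoprotein gene (0.15), Itgbl1 (0.16) and Col8a1, a short-chain collagen gene (0.17), while the nearest family member, Fmod, lay at 0.45. The profile of Bgn itself varied by 0.97 on this measure. Prelp was nearest to Tgfb3, a TGF-beta ligand gene (0.14), and Ckap4 (0.14). Lum (0.19) and Aspn (0.24) both had Mmp2, a gelatinase gene, among their 3 nearest. Fmod was nearest to Pamr1 (0.26), Dkk3 (0.30) and Myh7, the beta myosin heavy chain gene (0.30). Dcn was nearest to Entpd2 (0.12), Ecm2 (0.13), a leucine-rich matrix gene next to Aspn, and Timp2 (0.13). The profile of Dcn itself varied by only 0.26, and its nearest family member, Lum, lay at 0.27. Ogn, Podn and Omd had nearest genes at 0.09, 0.13 and 0.14, but their own profiles varied by only 0.18, 0.21 and 0.25. All these profiles share the same libraries and groups, so the distances are descriptions.

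Genes of the pathway, and the cell markers further on, were taken from lists chosen with earlier results of these data known. Counts over these lists are therefore descriptions. Of 9 other small leucine-rich proteoglycan and related genes, only Tsku and Ecm2 passed the filter, and Kera and Epyc, the neighbours of Lum, were listed at 0 in every knockout library of the model. Tsku, which encodes the secreted protein tsukushi, rose by 0.48 ± 0.18 in knockout hearts (limma with Benjamini-Hochberg adjusted p = 0.0445) and had 0.26 ± 0.17 in wild-type hearts. Among collagens that the family binds, 10 of 11 tested genes rose and 1, Col6a6, fell after TAC in each genotype, beside 21.1% of all genes risen in knockout hearts and 10.7% in wild-type hearts. Col6a6 had means of 0.242 FPKM in knockout TAC and 0.494 in wild-type TAC, against 1.04 and 0.947 in sham. It thus passed the filter through sham libraries, and its call is no independent evidence. Col14a1, which encodes a collagen on the fibril surface, had 7.10 ± 2.19 FPKM in knockout TAC and 1.70 ± 0.108 in knockout sham, against 3.51 ± 1.04 in wild-type TAC and 1.57 ± 0.217 in wild-type sham. Col5a2 and Col5a1, chains of the collagen that starts fibrils, rose by 1.93 and 1.15 in knockout hearts and by 1.12 and 0.83 in wild-type hearts. Between knockout TAC and wild-type TAC, 6 of the 11 collagen genes were higher and 0 lower, beside 6.53% of all genes higher, with Col14a1 at 0.84 ± 0.17.

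Genes that build the sugar chains were taken as a pair of lists. Of 22 chondroitin and dermatan sulfate synthesis genes tested, 6 rose and 0 fell in knockout hearts and 1 rose and 0 fell in wild-type hearts, with list medians of 0.19 and 0.02. Among all genes 21.1% rose in knockout hearts and 10.7% in wild-type hearts, so the knockout share of this list was near the background and the wild-type share below it. Chpf, a chondroitin polymerizing factor gene, rose by 0.69 ± 0.10 in knockout hearts and 0.35 ± 0.09 in wild-type hearts and was 0.50 ± 0.09 higher in knockout TAC than in wild-type TAC. Chpf2 and Papss1, whose product makes the sulfate donor, rose in knockout hearts by 0.48 and 0.32 and had 0.16 and -0.01 in wild-type hearts, which did not pass. Of 7 keratan sulfate synthesis genes, 5 rose in knockout hearts and 2 in wild-type hearts, with none falling, beside the same background. The galactosyltransferase gene B4galt1 rose by 0.47 ± 0.08 in knockout hearts and had 0.07 ± 0.07 in wild-type hearts, and St3gal1 and B4galt4 rose in both (0.50 and 0.49 in knockout, 0.38 and 0.39 in wild type).

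Receptors and signalling partners of the family rose in 13 of 17 tested genes in knockout hearts and in 6 of 17 in wild-type hearts, and none fell. Over all genes the shares that rose were 21.1% and 10.7%. Tlr4, a receptor of soluble biglycan, had 4.53 ± 0.750 FPKM in knockout TAC and 1.73 ± 0.420 in knockout sham, against 4.25 ± 0.500 in wild-type TAC and 1.89 ± 0.296 in wild-type sham. Its log2 changes were 1.02 ± 0.12 and 0.86 ± 0.11, and its difference of 0.07 ± 0.10 between knockout TAC and wild-type TAC did not reach the threshold (limma with Benjamini-Hochberg adjusted p = 0.731). Cd44, which encodes a hyaluronan receptor, rose by 1.25 ± 0.15 in knockout hearts, had 0.34 ± 0.14 in wild-type hearts, and was 0.57 ± 0.13 higher in knockout TAC than in wild-type TAC. Tgfb3 rose by 1.07 and 0.67 in knockout and wild-type hearts. Of 10 tested genes for proteases and enhancers that act on these proteins, 8 rose and 1 fell in knockout hearts and 6 rose and 2 fell in wild-type hearts, where 17.7% and 11.2% of all genes fell. Pcolce, an enhancer of the BMP1 protease, rose by 1.08 and 0.78, Mmp14, a membrane-bound collagenase gene, rose by 1.12 in knockout hearts and had 0.23 ± 0.15 in wild-type hearts, and Htra1, a serine protease gene, fell by 0.61 and 0.47. Among the 17 receptor and partner genes the interaction was called for 1, Cd44, whose response was larger in knockout hearts by 0.91 ± 0.20 (limma with Benjamini-Hochberg adjusted p = 0.0374), beside 0.377% of all genes with a larger response in knockout hearts. Over all genes the interaction was called for 111, and for 17 without wild-type TAC replicate 5. The value of Cd44 without that library is not given here.

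**Figure D4:**
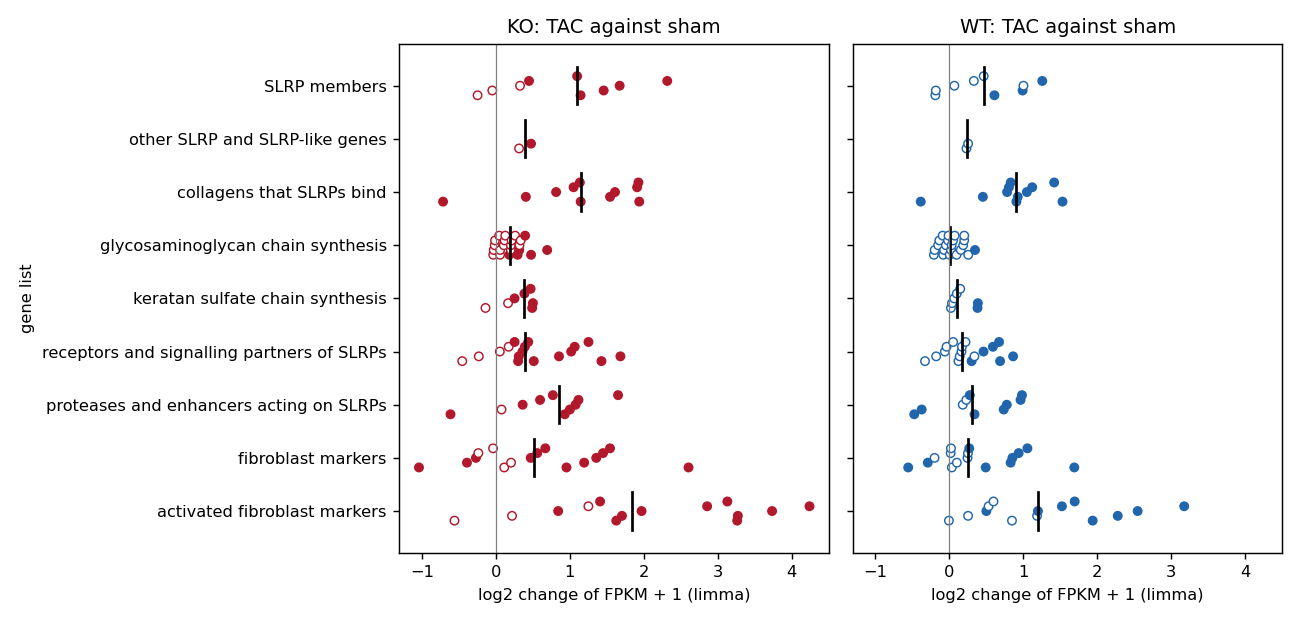
Log2 change of FPKM + 1 after TAC (x axis) for each tested gene of the family, of its partner lists and of the fibroblast lists (y axis), in knockout hearts on the left and wild-type hearts on the right. Filled points passed at an adjusted p of 0.05 by limma, and black bars are list medians. For the 9 family genes, Fmod included, the medians were 1.10 in knockout and 0.47 in wild-type hearts.

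Markers of fibroblasts were followed in a general list and a list for activated cells. The summed level of 16 fibroblast markers, none listed at 0, was 880 to 1344 FPKM in knockout TAC and 713 to 756 in knockout sham, and 813 to 1171 in wild-type TAC and 658 to 886 in wild-type sham. Of the 16, 9 rose, 3 fell and 4 did not pass in knockout hearts, and 7 rose, 2 fell and 7 did not pass in wild-type hearts, beside 21.1% of all genes risen and 17.7% fallen in knockout and 10.7% and 11.2% in wild-type hearts. The log2 changes in knockout and wild-type hearts were 1.36 and 1.06 for Loxl1, 0.56 and 0.27 for Lamc1, and -1.04 and -0.55 for Scara5. Between knockout TAC and wild-type TAC 2 of the 16 were higher (Mgp and Loxl1) and 2 lower (Scara5 and Gsn). Activated fibroblast markers, 14 genes with none at 0, summed to 224 to 569 FPKM in knockout TAC and 76.8 to 99.9 in knockout sham, and to 125 to 352 in wild-type TAC and 80.1 to 93.7 in wild-type sham. Of these, 11 rose in knockout hearts and 8 in wild-type hearts, none fell, and 5 were higher and 0 lower in knockout TAC than in wild-type TAC, where 6.53% of all genes were higher and 4.78% lower. The risen genes include Ltbp2, with means of 0.229 FPKM in knockout sham and 0.400 in wild-type sham, and Tnc, with 0.114 and 0.0641. Genes this low in sham passed the filter through TAC libraries, so their calls are no independent evidence. The part of the fibroblast markers in the changes of the proteoglycan genes was not tested.

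Markers of other cell types are read against 21.1% of all genes risen and 17.7% fallen in knockout hearts, and 10.7% risen and 11.2% fallen in wild-type hearts. Of 10 cardiomyocyte markers 8 fell and 1 rose in knockout hearts, and 5 fell and 2 rose in wild-type hearts, with the sum at 46202 to 51841 FPKM in knockout TAC against 57678 to 61474 in knockout sham. Of 12 macrophage markers 7 rose in knockout hearts, with Tyrobp at 0.79, Adgre1 at 0.72 and C1qb at 0.72. In wild-type hearts 0 rose and 1, Timd4, fell. Timd4 had means of 0.493 FPKM in knockout TAC, 0.659 in knockout sham and 0.647 in wild-type TAC, against 1.35 in wild-type sham. It thus passed the filter through wild-type sham libraries, and its call is no independent evidence. Endothelial markers rose in 2 of 12 genes in knockout hearts (Pecam1 by 0.33 and Cldn5 by 1.31) and in 0 of 12 in wild-type hearts, below the share of all genes that rose in either genotype. Of 10 smooth muscle and pericyte markers 1 rose (Cspg4, by 0.61) and 2 fell in knockout hearts, and 0 rose and 2 fell in wild-type hearts, with Abcc9 at -0.80 and -0.63 and Smtn at -0.70 and -0.35. Few markers of valve and tendon (3 of 12), of epicardium (2 of 8), of Schwann cells and neurons (3 of 9), of adipocytes (1 of 8) and of lymphocytes (1 of 10) passed the filter. Scx, a tendon transcription factor gene, rose by 1.17 and 1.03, and Wt1, an epicardial gene, rose by 0.83 and 0.84 in knockout and wild-type hearts. The part of these cell types in the results was not tested.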

How the data were processed

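Heart RNA from 18 libraries was analysed, 17 of them in the model. Per the labels' protocols, a Qiagen RNeasy kit and a SMARTER mRNA-Seq kit were used. The build is mm10, per the submitters' processing notes, while the sources used here name no aligner or counter. The deposited values were inferred to be FPKM from their range, so depth is unknown and no counting interval is given. Groups came from genotype and treatment labels. Genes at 1 FPKM in at least 3 libraries were kept (11937), and limma 3.58.1 (R 4.3.3) was run on log2(FPKM + 1) (intensity trend, robust moderation, Benjamini-Hochberg over all genes, threshold 0.05), with 4 groups in 1 model. Ratios of Bgn to Dcn were tested with 2-sided exact permutation tests (scipy 1.17.1). Alternatives are given in the closing section. The members and gene lists were chosen with earlier results of these data known. From each list, up to 3 genes with the smallest adjusted p over the 2 TAC comparisons were named, or the most abundant gene where none passed. Genes outside that rule (Col6a6, Ecm2, Kera, Epyc, Mgp, Gsn, Ltbp2, Tnc, Timd4) were named after their values were seen. A gene that the rules select is not reported here. The model was tested on simulated data.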

Additional observations from a re-analysis of the deposited data

How the results depend on the processing

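Of 1113 values of single genes under 25 alternative settings, 1031 kept their direction and their side of the threshold, 44 passed it anew, 1 no longer passed, and 37 changed sign while passing in neither setting. The counts of family genes that passed in knockout TAC against knockout sham (6) moved between 5 and 7. Over all genes 4633 of 11937 passed there, and 3720 of 11897 to 5107 of 11952 under the alternatives. For wild-type TAC against wild-type sham the family count was 3. It was 5 with all 18 libraries, 6 with the replicate block and 5 with median-ratio scaling. With a term for the library set it was 6, without both TAC libraries that stood apart 6, and with each library left out 3 to 6. Over all genes 2615 of 11937 passed in this comparison, 2759 of 11952 with all 18 libraries and 2379 with the replicate block. With median-ratio scaling 2745 of 11930 passed, with the set term 2625, without both TAC libraries 2759 of 11891, and with each library left out 1981 to 2748. For knockout TAC against wild-type TAC the family count was 1. It was 2 with the replicate block, 2 with the set term and 1 to 2 with each library left out. Over all genes 1350 of 11937 passed here, 1196 with the replicate block, 243 with the set term and 663 to 1833 with each library left out. For knockout sham against wild-type sham the family count was 0, and 1 (Lum, lower) with the replicate block or with only the 2 groups compared. The counts over all genes were 151 of 11937, 158 with the replicate block and 162 of 11427 with only the 2 groups. For the interaction the family count was 0. It was 1 with all 18 libraries, 3 with the replicate block, 1 without both TAC libraries and 0 to 1 with each library left out. Over all genes the interaction was called for 111 of 11937, for 300 of 11952 with all 18 libraries and for 345 with the replicate block. Without both TAC libraries it was called for 460 of 11891, and with each library left out for 7 to 597. Bgn minus Dcn in TAC against sham was 2.0 in knockout pairs and 0.95 in wild-type pairs under the replicate block, with exact permutation p = 0.25 and 0.125, the smallest that 3 and 4 pairs allow. In sham hearts of the 2 genotypes, Bgn minus Dcn changed sign, to 0.0103 with all 18 libraries and between -0.12 and 0.15 with each library left out. The causes were not tested. Replicate numbers did not pair the libraries: correlations of same-numbered libraries were -0.24 to 0.16, and 3 of 14 libraries correlated best with their own number. Over 11937 genes, knockout sham replicate 2 differed from the mean of replicates 3 and 4 with an SD of 0.15 on the log2 scale, against 0.18 for replicate 1. Depth is unknown, so low genes such as Fmod and Omd have no counting error.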
